A study of Rattus norvegicus with 12 samples.

Results

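Potassium channel genes were followed in rat dorsal root ganglia after injury of the spinal nerves. The genes are all those whose symbol begins with Kcn, 73 of the 10411 genes named on the array, read through 108 probe sets. For each gene the probe set with the highest mean signal over the 12 arrays was used, whatever its difference between groups. The tissue was the L4/L5 dorsal root ganglion, which houses the cell bodies of sensory neurons, of adult male Sprague Dawley rats from a pair of genetic sub-lines named High Pain (HP) and Low Pain (LP). In the SNL groups the spinal nerves L4 and L5 were ligated, which serves as a model of neuropathic pain in rats. Ganglia were collected 3 days after ligation. The sham groups had surgery that left the nerve undamaged. The 4 groups were HP SNL, HP sham, LP SNL and LP sham, with 3 arrays each. All groups share strain, sex and tissue, and the labels give no drug, transgene or other treatment. No label states that replicates are separate animals or whether animals were pooled, so p-values measure only how far these samples spread, and that spread may be technical. The number of arrays limits the precision.

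Potassium channels let potassium leave the cell, which holds the resting potential of a sensory neuron and ends its action potentials. Voltage-gated (Kv) channels are built from pore-forming subunits of the Kcna, Kcnb, Kcnc, Kcnd, Kcnh and Kcnq families, joined by modulatory subunits (Kcng, Kcns, Kcnv) that form no channel alone and by accessory proteins (Kcnab, Kcne, Kcnip). The K2P channels (Kcnk) carry leak currents, the inward rectifiers (Kcnj) pass current near rest, and the Kcnma, Kcnn and Kcnt channels open with intracellular calcium or sodium, with Kcnmb genes for the accessory subunits of Kcnma1. Lower potassium channel expression in the ganglion is a known feature of nerve injury models.

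The values are probe set signals on a linear scale, whose array medians lay between 278.4 and 313.2. The 5th percentile of an array lay between 12.4 and 20.8, so signals near there are close to the bottom of the scale. Differences are SNL minus sham on the scale of log2(signal + 1), ± SE, which understates the change of dim genes, and adjusted p-values are limma's with Benjamini-Hochberg adjustment over all 10411 genes and a threshold of 0.05. All 12 listed neuron markers were measured, and their summed signal was 62370 to 68350 in HP SNL against 68260 to 73410 in HP sham, and 58520 to 64730 in LP SNL against 67370 to 73140 in LP sham. Macrophage markers summed to 6785 to 7391 in HP SNL against 3182 to 3412 in HP sham, and to 6309 to 7315 in LP SNL against 2871 to 3241 in LP sham. Skeletal muscle markers were highest in HP sham replicates 1 and 3, at 4306 and 4361, while the other 10 arrays lay between 2823 and 3736. The 3' to 5' ratio of the actin control probe sets, a measure of RNA integrity, was 1.118 to 1.342 in HP SNL against 1.483 to 1.847 in HP sham, and 1.113 to 1.125 in LP SNL against 0.993 to 1.877 in LP sham. The same ratio of the GAPDH control probe sets overlapped in HP, at 1.066 to 1.244 in HP SNL and 1.095 to 1.170 in HP sham. In LP the GAPDH ratio was 1.084 to 1.183 in LP SNL and 1.056 to 1.095 in LP sham.

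Ligation was followed mainly by lower signals. In HP, 17 of the 73 Kcn genes fell (23.3%) and 1 rose, where 6.59% of all genes were called lower and 7.02% higher. In LP, 18 fell (24.7%) and none rose, where 6.79% of all genes were called lower and 7.66% higher. Averaged over the lines, 22 fell (30.1%) and 3 rose (4.11%), where 11.8% of all genes were called lower and 13.0% higher. The median log2 difference of the Kcn genes was -0.19 in HP and -0.14 in LP, beside a median over all genes of 0.00 in HP and 0.02 in LP. The genes lower in both lines were 13 of the 17 in HP and 13 of the 18 in LP: Kcnab2, Kcnc2, Kcnd1, Kcnd3, Kcnh2, Kcnh6, Kcnip2, Kcnip3, Kcnk1, Kcnk4, Kcns1, Kcns3 and Kcnv1. The share of all genes lower in both lines is not given here, so the overlap is not read as particular to Kcn genes. Another 4 passed in HP without passing in LP (Kcna4, Kcnab3, Kcnc1, Kcnk3) and 5 in LP without passing in HP (Kcnab1, Kcnc4, Kcng3, Kcnip4, Kcnk2). In tissue of many cell types, fewer cells of a type and less RNA per cell cannot be told apart.

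The HP count of 17 was 11 without HP sham replicate 1 and 11 without HP sham replicate 3. It was 3 (Kcnip2, Kcns1 and Kcns3) with both left out, which leaves 1 sham array that is assumed to vary like the other groups. With the actin ratio as a covariate it was 7 (Kcnd1, Kcnd3, Kcnip2, Kcnk4, Kcns1, Kcns3 and Kcnv1). The LP count stayed between 14 and 19 when any array was left out. The part of muscle RNA and RNA integrity in the HP falls was not tested beyond these fits.

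**Figure D1:**
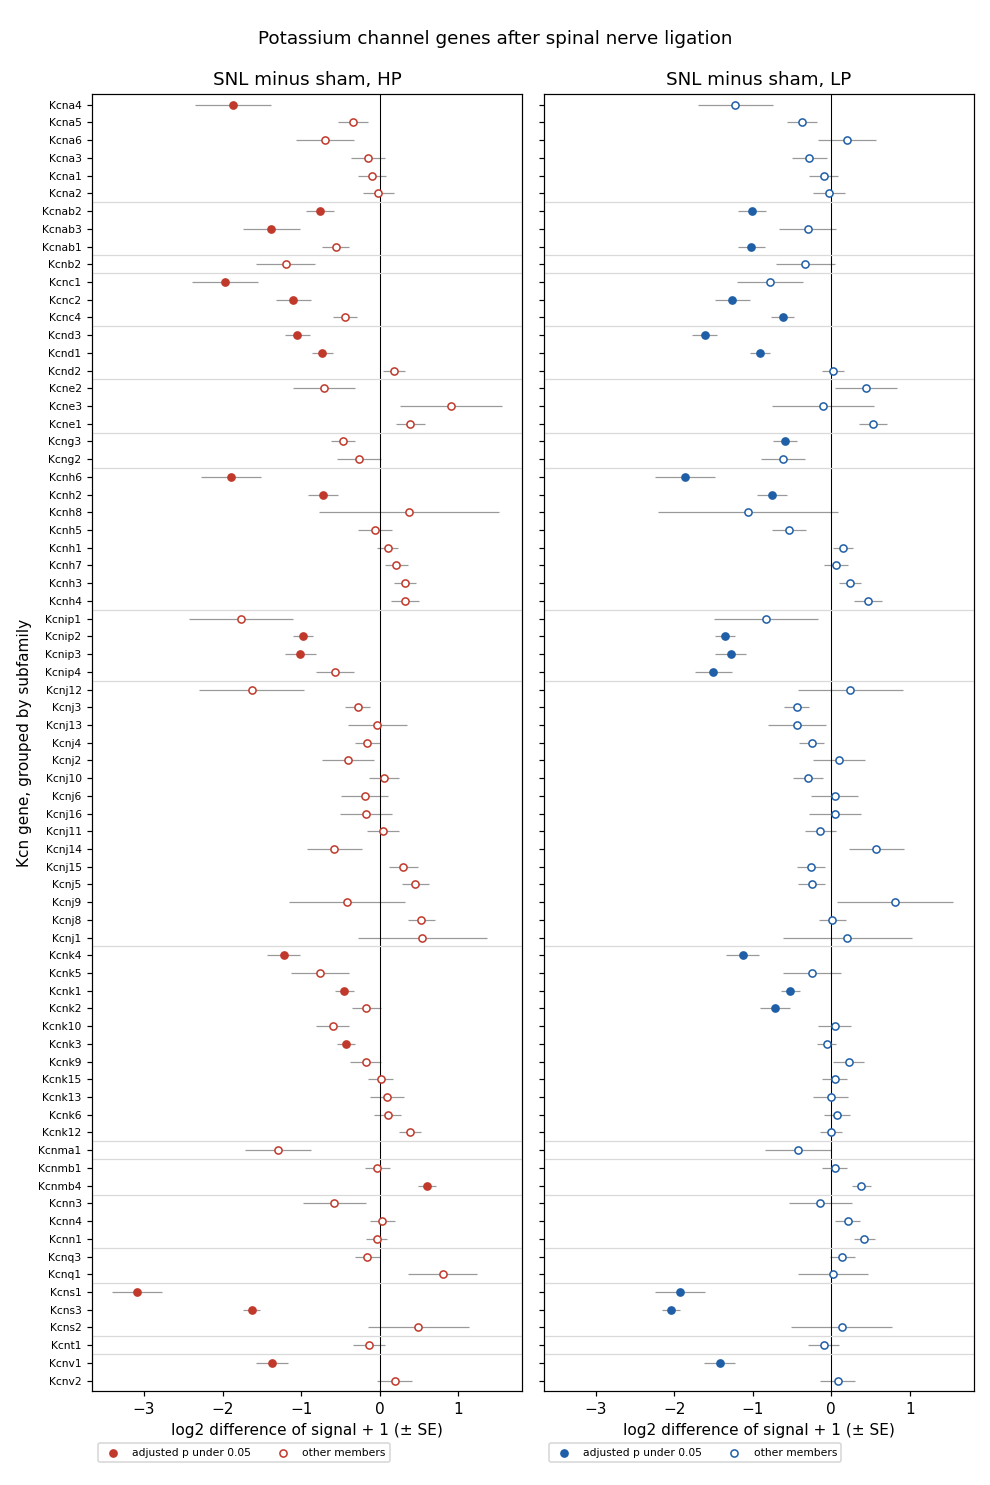
Log2 difference of signal + 1, SNL minus sham, for all 73 Kcn genes in HP (left) and LP (right), with bars of 1 SE and genes ordered by subfamily. Filled points passed an adjusted p of 0.05: 18 in HP, of which Kcnmb4 alone lies above 0, and 18 in LP, all below 0, with Kcns1 lowest in HP at -3.09 and Kcns3 lowest in LP at -2.04.

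The lowest log2 difference in each line belonged to a modulatory Kv subunit, Kcns1 in HP and Kcns3 in LP. Kcns1 encodes Kv9.1, a silent subunit that changes the gating of Kv2 channels and is found in myelinated sensory neurons. Its probe set, 1368749_at, read 102.3, 52.9 and 136.2 in HP SNL against 752.6, 808.6 and 776.1 in HP sham, and 146.3, 115.2 and 186.9 in LP SNL against 611.8, 670.8 and 428.5 in LP sham. Every SNL array lay below every sham array of its line. The signal was 8.53-fold lower in HP SNL than in HP sham (log2 difference -3.09 ± 0.32, limma adjusted p = 0.000377) and 3.80-fold lower in LP SNL than in LP sham (-1.93 ± 0.32, limma adjusted p = 0.00297). Kcns3 encodes Kv9.3, a silent partner of Kv2.1. Probe set 1368751_at read 524.2, 415.2 and 431.0 in HP SNL against 1388.0, 1442.9 and 1386.8 in HP sham, and 291.0, 322.5 and 306.0 in LP SNL against 1173.7, 1355.1 and 1262.7 in LP sham. The groups were far apart in both lines, and this gene had the smallest p of all Kcn genes in each (-1.63 ± 0.11, limma adjusted p = 3.85e-05 in HP, and -2.04 ± 0.11, limma adjusted p = 7.67e-06 in LP). Kcnv1 encodes Kv8.1, another silent subunit. Probe set 1387881_at read 155.1, 200.0 and 155.2 in HP SNL against 455.5, 454.4 and 409.8 in HP sham, and 187.7, 101.7 and 148.1 in LP SNL against 406.3, 402.2 and 333.9 in LP sham. Its fall was of like size in the lines, 2.59-fold in HP (limma adjusted p = 0.00202) and 2.67-fold in LP (limma adjusted p = 0.00138).

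Of the 7 modulatory genes, 3 fell in HP and 4 in LP, where 6.59% of all genes fell in HP and 6.79% in LP. Kcng3, which encodes Kv6.3, fell in LP by 0.59 on the log2 scale (limma adjusted p = 0.0278, and 0.0750 to 0.101 without LP SNL replicate 1 or 2 or LP sham replicate 2 or 3), with a mean signal of 172.7 ± 21.1 in LP SNL and 259.5 ± 27.4 in LP sham (SD, n = 3 each). In HP its difference was -0.47 with a 95% interval of -0.81 to -0.13 and a limma adjusted p of 0.0714, and it passed with quantile normalization (0.0337) and without HP sham replicate 2 (0.0283). The other 3 members, Kcng2, Kcns2 and Kcnv2, did not pass, and averaged over the lines their differences were -0.44, 0.31 and 0.13. Kcns2 read between 4.3 and 25.3 on every array, near the bottom of the scale, so a change there could hardly be seen.

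The Kv4 channels carry the fast A-type current, which delays firing, and calcium-binding KChIP proteins (Kcnip) are their partners. Of the 3 Kcnd genes, 2 fell in each line, and of the 4 Kcnip genes, 2 fell in HP and 3 in LP. The shares of all genes that fell were 6.59% in HP and 6.79% in LP. Kcnd3 encodes the pore subunit Kv4.3. Probe set 1369144_a_at read 304.9, 272.3 and 212.3 in HP SNL against 582.1, 524.0 and 513.0 in HP sham, and 217.2, 175.7 and 259.2 in LP SNL against 663.6, 623.0 and 693.7 in LP sham. No SNL array reached a sham array. The signal was 2.07-fold lower in HP (-1.05 ± 0.16, limma adjusted p = 0.00271) and 3.06-fold lower in LP (-1.61 ± 0.16, limma adjusted p = 0.0002). A second, dimmer Kcnd3 probe set gave -1.43 in HP and -0.18 in LP, neither past the threshold, and with the mean of both probe sets the LP call was lost (limma adjusted p = 0.103). Kcnd1, for Kv4.1, averaged 1190 ± 140 in HP SNL and 1964 ± 34.7 in HP sham, and 1168 ± 178 in LP SNL and 2184 ± 161 in LP sham (SD, n = 3 each). It fell 1.66-fold in HP and 1.88-fold in LP (limma adjusted p = 0.00456 and 0.00118). Kcnd2, the gene of Kv4.2, did not pass, and its average difference of 0.10 had a 95% interval of -0.12 to 0.31.

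Among the KChIP genes, Kcnip2 (KChIP2, which raises Kv4 surface expression) was read by probe set 1373987_at. It gave 351.1, 335.9 and 260.2 in HP SNL against 603.5, 639.2 and 607.5 in HP sham, and 228.5, 232.8 and 272.9 in LP SNL against 682.1, 596.1 and 598.9 in LP sham. The groups did not overlap in either line, and the gene fell 1.97-fold in HP and 2.55-fold in LP (limma adjusted p = 0.00107 and 0.00016). Of its other probe sets, 1 fell on the average (-1.23) and 1 did not pass (0.05). Kcnip3 (KChIP3, also known as DREAM, a calcium-binding transcriptional repressor) was read by 1376225_at, with 911.5, 1146.9 and 877.5 in HP SNL against 1889.9, 1821.4 and 2168.2 in HP sham, and 664.8, 625.5 and 640.2 in LP SNL against 1947.6, 1795.6 and 1102.1 in LP sham. LP sham replicate 3 was well below the other LP sham arrays but still above all LP SNL arrays. Kcnip3 fell by 1.01 ± 0.20 in HP and by 1.28 ± 0.20 in LP on the log2 scale (limma adjusted p = 0.00877 and 0.00212), and its other probe set fell in both lines as well.

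Kcnip4 (KChIP4) was read by 1370595_a_at, at 228.4, 318.8 and 334.3 in HP SNL against 403.5, 354.2 and 554.3 in HP sham, and 170.5, 182.7 and 299.6 in LP SNL against 583.6, 625.0 and 587.1 in LP sham. The arrays separated by group in both lines, narrowly in HP and widely in LP. The fall in LP was 2.83-fold (limma adjusted p = 0.00254). In HP the difference was -0.57 ± 0.24, with a 95% interval of -1.10 to -0.03 and a limma adjusted p of 0.163. Kcnip1 (KChIP1), the remaining KChIP gene, had differences of -1.77 ± 0.66 in HP and -0.83 ± 0.66 in LP that did not pass, with HP SNL arrays that ran from 14.8 to 153.9. Without HP SNL replicate 1, the highest of these, it passed in HP at -2.54 (limma adjusted p = 0.0154).

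The Kv3 genes encode channels of fast repolarisation. Kcnc1 (Kv3.1, probe set 1368524_at) read 186.1, 42.4 and 88.6 in HP SNL against 328.6, 364.1 and 363.7 in HP sham, and 160.4, 161.1 and 101.1 in LP SNL against 233.0, 250.7 and 228.2 in LP sham. SNL arrays lay below sham arrays in both lines, with a wide spread in HP SNL. It passed in HP (-1.97 ± 0.42, limma adjusted p = 0.0123), while the LP difference of -0.78 ± 0.42 did not (limma adjusted p = 0.269). Kcnc2 (Kv3.2, probe set 1370439_a_at) read 138.0, 106.0 and 105.4 in HP SNL against 271.6, 266.0 and 211.9 in HP sham, and 82.6, 122.5 and 116.5 in LP SNL against 332.5, 192.4 and 255.4 in LP sham. No SNL array overlapped sham, and the gene fell 2.14-fold in HP and 2.39-fold in LP (limma adjusted p = 0.00995 and 0.00436). Its 5 other, dimmer probe sets gave mixed values. On the average over the lines 4 of them had differences of -0.29 to -1.24 that did not pass and 1 rose by 0.55 (limma adjusted p = 0.0179), and with the mean of all 6 probe sets neither line passed (limma adjusted p = 0.222 in HP and 0.158 in LP). Kcnc4 (Kv3.4, which inactivates fast) averaged 638.2 ± 64.4 in HP SNL and 862.3 ± 61.0 in HP sham, and 499.9 ± 54.8 in LP SNL and 777.3 ± 156 in LP sham (SD, n = 3 each). It fell in LP by 0.62 ± 0.15 (limma adjusted p = 0.0198, and 0.0540 to 0.0659 without LP SNL replicate 2 or 3 or LP sham replicate 1), and in HP its difference was -0.44 ± 0.15 (limma adjusted p = 0.0886).

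**Figure D2:**
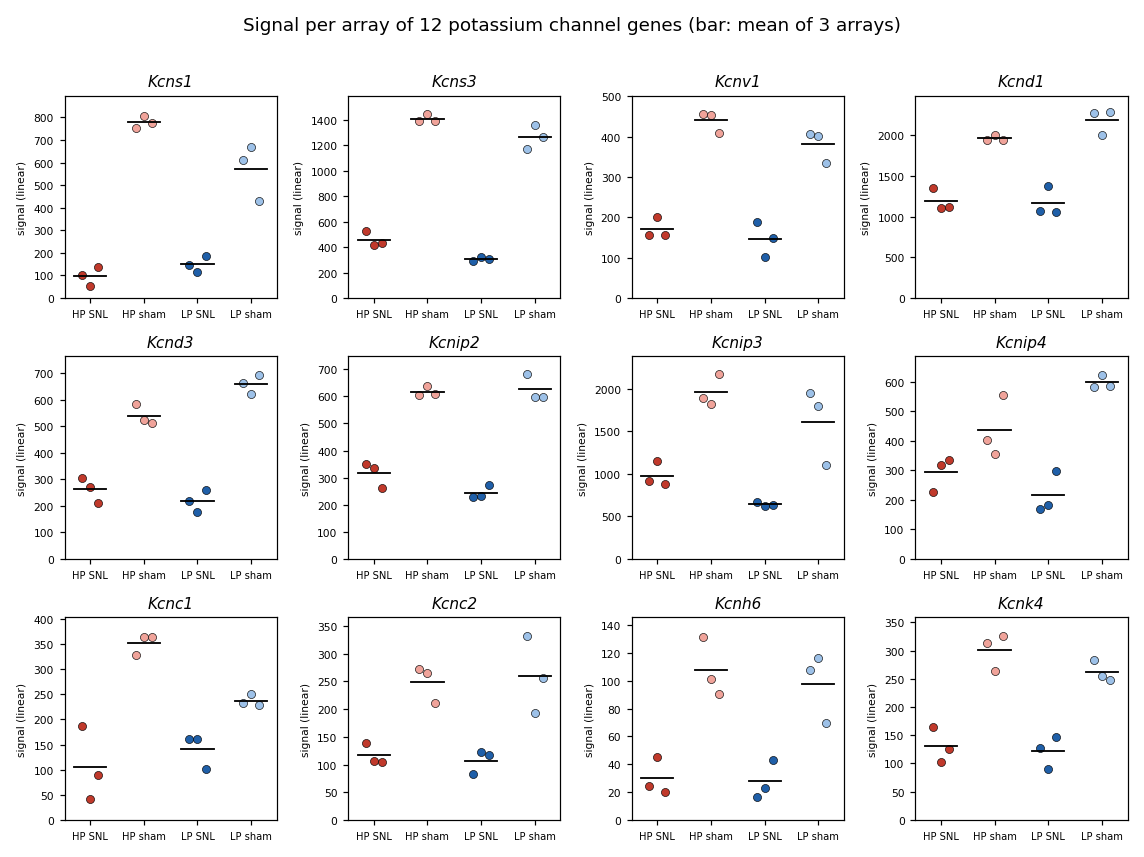
Signal (linear scale) on each of the 3 arrays of the HP SNL, HP sham, LP SNL and LP sham groups for 12 Kcn genes, with a bar at the group mean and the axis starting at 0. In every panel the SNL points lie below the sham points of the same line, as for Kcns3 at 415.2 to 524.2 in HP SNL against 1386.8 to 1442.9 in HP sham.

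Of the 8 Kcnh genes of the ether-a-go-go family, 2 fell in each line, and both belong to the erg group. The shares of all genes that fell were 6.59% in HP and 6.79% in LP. Kcnh6 (erg2, probe set 1369017_at) read 24.1, 45.5 and 20.1 in HP SNL against 131.7, 101.7 and 90.5 in HP sham, and 16.6, 23.1 and 43.4 in LP SNL against 107.7, 116.2 and 69.9 in LP sham. The groups did not overlap, and the gene fell 3.70-fold in HP and 3.63-fold in LP (limma adjusted p = 0.00968 and 0.00902). Some SNL signals were near the 5th percentile of the arrays, so how far it fell is uncertain. With a pseudocount of 32 it was -1.16 on the average, against -1.87 with a pseudocount of 1. Kcnh2 (erg1), known for its part in the repolarisation of the heart, averaged 407.1 ± 63.3 in HP SNL and 671.1 ± 106 in HP sham, and 338.9 ± 53.2 in LP SNL and 572.5 ± 113 in LP sham (SD, n = 3 each). It fell 1.65-fold in HP and 1.68-fold in LP (limma adjusted p = 0.0321 and 0.0247), calls that were lost in HP without SNL replicate 1 or 3 or sham replicate 1 or 3 (0.0810 to 0.114) and in LP without SNL replicate 1 or 2 or sham replicate 1 or 2 (0.0722 to 0.0891). Kcnh7, the third erg gene, did not pass, with differences of 0.21 in HP and 0.06 in LP. Kcnh4, of the elk group, rose on the average alone, by 0.40 ± 0.13 (limma adjusted p = 0.0429), and the call held without HP sham replicate 2 or LP SNL replicate 3 but was lost without any 1 of the other 10 arrays (0.0527 to 0.0951). Its means were 229.1 ± 31.2 in HP SNL and 184.3 ± 37.3 in HP sham, and 298.3 ± 53.5 in LP SNL and 212.7 ± 17.2 in LP sham (SD, n = 3 each).

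The promoter windows of 4 of the 13 genes that fell in both lines are shown as examples, from 4 subfamilies. All 4 hold the GGGCGG marked below, which only some of the Kcn windows do. The windows run from 250 bases before to 50 after the gene start, 5' to 3' on the gene's strand, from RefSeq (rat build GRCr8). They lie at chr3:173262297-173262596 on the minus strand for Kcns1, chr2:195626066-195626365 on the plus strand for Kcnd3, chr1:254613849-254614148 on the minus strand for Kcnip2 and chr10:91449401-91449700 on the plus strand for Kcnh6. Capitals mark GGGCGG, the core of a GC box, on either strand (CCGCCC on the other), and in Kcnh6 also TTCAGCACC and GGACAG.
Kcns1: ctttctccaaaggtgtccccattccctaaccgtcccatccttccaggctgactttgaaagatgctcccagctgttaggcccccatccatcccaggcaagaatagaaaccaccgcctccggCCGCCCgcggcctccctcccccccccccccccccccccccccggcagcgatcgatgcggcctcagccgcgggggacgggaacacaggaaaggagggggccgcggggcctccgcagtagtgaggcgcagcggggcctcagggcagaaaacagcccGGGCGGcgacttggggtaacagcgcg
Kcnd3: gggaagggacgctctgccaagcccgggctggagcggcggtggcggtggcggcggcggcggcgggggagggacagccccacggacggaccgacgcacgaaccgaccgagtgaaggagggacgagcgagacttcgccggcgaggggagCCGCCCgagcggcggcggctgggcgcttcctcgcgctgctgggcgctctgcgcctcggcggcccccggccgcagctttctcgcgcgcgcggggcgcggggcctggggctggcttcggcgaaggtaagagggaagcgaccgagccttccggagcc
Kcnip2: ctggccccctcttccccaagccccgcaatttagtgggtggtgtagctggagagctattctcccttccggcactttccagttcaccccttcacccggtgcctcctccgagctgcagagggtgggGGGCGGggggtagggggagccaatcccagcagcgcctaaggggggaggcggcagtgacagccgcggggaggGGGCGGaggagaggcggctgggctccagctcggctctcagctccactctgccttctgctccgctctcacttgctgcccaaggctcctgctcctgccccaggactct
Kcnh6: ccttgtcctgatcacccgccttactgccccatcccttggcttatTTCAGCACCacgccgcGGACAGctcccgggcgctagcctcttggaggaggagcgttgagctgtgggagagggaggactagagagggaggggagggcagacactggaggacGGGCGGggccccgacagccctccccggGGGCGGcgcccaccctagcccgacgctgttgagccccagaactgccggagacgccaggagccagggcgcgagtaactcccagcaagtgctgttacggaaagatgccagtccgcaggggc
Windows were found for 50 of the 73 genes, and 16 of the 50 fell on the average over the lines. GGGCGG occurred in 29 of the 50 and in 10 of the 16, beside 33.1% of all 33469 windows searched. These windows are not limited to the genes on the array, so GGGCGG is not read as particular to Kcn genes. TTCAGCACC is the left part of the element bound by the repressor REST and occurred in 0.356% of all windows and in 1 Kcn window, that of Kcnh6. It starts there at position 45 and is followed 7 bases later by GGACAG, the core of the right part of that element. GGACAG also occurs, unmarked, in the Kcnd3 window, and its share of all windows is not given. Whether REST binds the Kcnh6 window at this spacing was not tested. The AP-1 motif TGANTCA, bound by Jun and Atf3 family dimers, occurred in 7.33% of all windows, in 3 of the 50 Kcn windows (Kcne1, Kcnj1 and Kcnj16) and in 0 of the 16. TGACGTCA, the cyclic AMP response element, occurred in 1.83% of all windows and in 0 of the 50. All motifs were searched on both strands, and a match is only a match of letters. AP-1 and the cyclic AMP element share the letters TGA and TCA but no match of one contains the other.

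The Kv1 genes behaved unevenly. Kcna1 and Kcna2 encode Kv1.1 and Kv1.2, which sit beside the nodes of myelinated axons and limit excitability. Kcna1 read 1337.6, 1040.8 and 1217.7 in HP SNL against 1377.3, 1367.8 and 1110.6 in HP sham, and 2128.5, 1783.2 and 1963.9 in LP SNL against 1675.9, 2717.9 and 1998.3 in LP sham. The SNL and sham arrays overlapped in both lines, and the average difference was -0.10 with a 95% interval of -0.38 to 0.18. Kcna2 averaged -0.02 with an interval of -0.34 to 0.29. These intervals leave out a fall as large as that of Kcnd3 or Kcns3. Kcna4 encodes Kv1.4, the fast inactivating Kv1 subunit of small sensory neurons. Probe set 1369043_at read 172.4, 29.6 and 99.7 in HP SNL against 291.1, 322.3 and 273.5 in HP sham, and 109.7, 107.3 and 131.7 in LP SNL against 279.7, 263.6 and 267.5 in LP sham. All SNL arrays lay below the sham arrays, with HP SNL replicate 2 far below the rest. The gene passed in HP (-1.87 ± 0.48, limma adjusted p = 0.0286) and on the average (-1.54 ± 0.34, limma adjusted p = 0.0074), but not in LP, where the difference was -1.22 ± 0.48 (limma adjusted p = 0.127). The HP call was lost without HP SNL replicate 3 or any 1 HP sham array (0.0556 to 0.0808), and without HP SNL replicate 2 the HP difference was -1.16 (0.0107). In LP the gene passed when only the LP arrays were fitted (0.00613) and without HP SNL replicate 1 (0.0483) or 2 (0.00307). The remaining Kcna3, Kcna5 and Kcna6 did not pass, at -0.22, -0.36 and -0.25 on the average. The other Kcna6 probe set, with a mean signal of 22.5 near the bottom of the scale, fell by 2.18 in HP (limma adjusted p = 0.00181) and by 1.27 on the average (0.00194), with -0.35 in LP (0.531). With the mean of both probe sets Kcna6 passed in HP (-1.44, limma adjusted p = 0.00355) and on the average (-0.76, 0.00764).

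All 3 genes of the cytoplasmic Kv beta subunits, which bind Kv1 channels, fell on the average, where 11.8% of all genes fell. Kcnab2 (probe set 1390674_at) read 1412.2, 1368.4 and 1162.6 in HP SNL against 2173.7, 2226.0 and 2240.2 in HP sham, and 1084.9, 649.7 and 1050.4 in LP SNL against 1942.6, 1847.7 and 1673.4 in LP sham. The groups did not overlap in either line, and the signal was 1.69-fold lower in HP and 2.01-fold lower in LP (limma adjusted p = 0.0204 and 0.0045), and a second, dimmer probe set gave differences of -2.64 and -2.37. The HP call was lost without HP SNL replicate 3 or any 1 HP sham array (0.0565 to 0.0750). Kcnab1 (1369847_at), whose protein can inactivate Kv1 channels, read 559.8, 472.7 and 508.8 in HP SNL against 830.9, 651.4 and 798.9 in HP sham, and 556.0, 680.6 and 413.1 in LP SNL against 1067.7, 1096.4 and 1124.3 in LP sham. SNL lay below sham throughout. The fall passed in LP (-1.02 ± 0.17, limma adjusted p = 0.00318), while HP gave -0.56 ± 0.17 (limma adjusted p = 0.0562) and passed with the dimmest 25% of genes left out (0.0301). Kcnab3 (1369687_at) read 109.4, 53.3 and 43.2 in HP SNL against 149.4, 124.9 and 247.6 in HP sham, and 132.7, 237.5 and 231.2 in LP SNL against 230.2, 247.5 and 241.0 in LP sham. It separated the groups in HP (-1.38 ± 0.36, limma adjusted p = 0.0323) and overlapped in LP (-0.30 ± 0.36, limma adjusted p = 0.663), and the HP call was lost without HP SNL replicate 2 or 3 or HP sham replicate 1 or 3 (0.0709 to 0.113). The average fall of 0.84 (limma adjusted p = 0.0371) was lost without any of 8 single arrays (0.0573 to 0.0815), and held without HP SNL replicate 1, HP sham replicate 2 or LP SNL replicate 2 or 3.

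**Figure D3:**
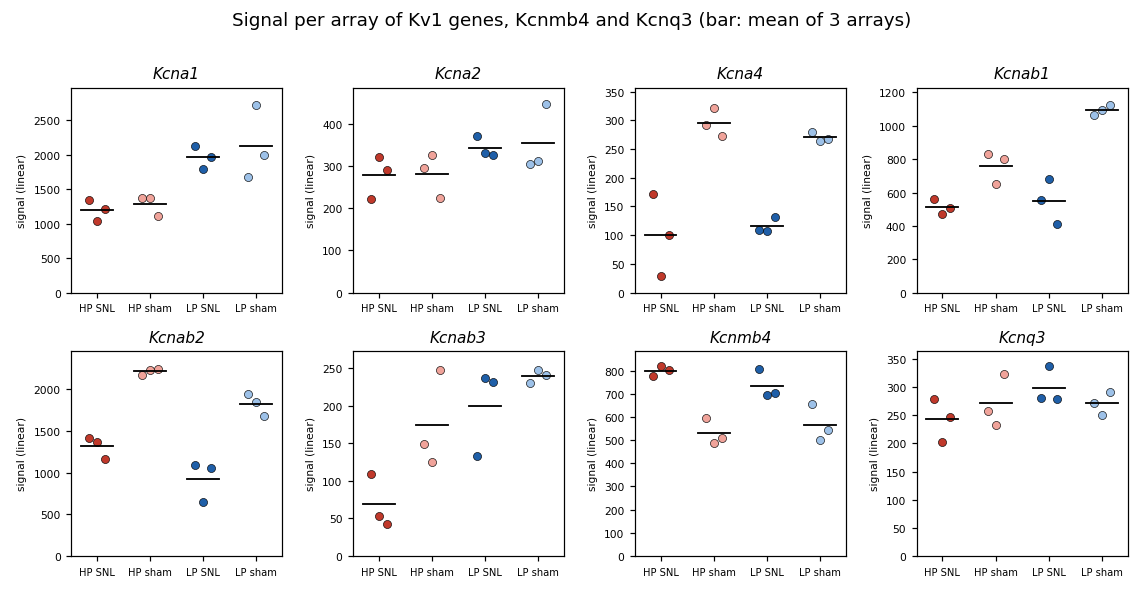
Signal (linear scale) on each of the 3 arrays of the HP SNL, HP sham, LP SNL and LP sham groups for Kcna1, Kcna2, Kcna4, the 3 Kcnab genes, Kcnmb4 and Kcnq3, with a bar at the group mean. Kcna1 and Kcna2 overlap between SNL and sham, the SNL points of Kcna4, Kcnab1 and Kcnab2 lie below sham in both lines, and those of Kcnmb4 lie above.

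Kcnmb4 was the Kcn gene that rose in HP. It encodes the neuronal beta4 subunit of the large conductance calcium-activated (BK) channel, which slows its gating. The signals were 778.2, 818.5 and 803.1 in HP SNL against 593.5, 487.7 and 508.3 in HP sham, and 806.9, 696.7 and 702.1 in LP SNL against 657.1, 500.1 and 544.1 in LP sham. Every SNL array was above every sham array of its line. The rise was 1.51-fold in HP (limma adjusted p = 0.0105) and 1.40-fold on the average (limma adjusted p = 0.00226), while LP alone gave 0.38 ± 0.12 (limma adjusted p = 0.0660), which passed with quantile normalization (0.0482) and without LP sham replicate 1 (0.0288). Kcne1, a single-span accessory subunit, rose on the average by 0.46 ± 0.13 (limma adjusted p = 0.0238). Its signals lay between 11.3 and 28.5 on all arrays, near the bottom of the scale, and the call was lost with a pseudocount of 32 and without HP SNL replicate 2 or 3, HP sham replicate 1 or 2 or LP SNL replicate 1 or 2 (0.0503 to 0.0589). Kcne3, of the same family, did not pass (0.91 ± 0.65 in HP and -0.11 ± 0.65 in LP), with a single HP SNL array at 358.5 while the other 11 arrays lay between 42.5 and 152.8.

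Among the 11 K2P leak channel genes, 3 fell in each line, where 6.59% of all genes fell in HP and 6.79% in LP. Kcnk4 encodes TRAAK, a mechanically gated and heat-sensitive channel of sensory neurons. Probe set 1370110_at read 165.2, 102.2 and 125.3 in HP SNL against 313.4, 264.2 and 326.7 in HP sham, and 127.9, 89.7 and 146.3 in LP SNL against 283.3, 254.1 and 247.9 in LP sham. The groups did not overlap, and the fall was 2.33-fold in HP and 2.19-fold in LP (limma adjusted p = 0.00419 and 0.00524). Kcnk1 (TWIK1) averaged 314.7 ± 42.0 in HP SNL and 430.0 ± 35.3 in HP sham, and 318.4 ± 32.3 in LP SNL and 456.0 ± 26.8 in LP sham (SD, n = 3 each), 1.37-fold and 1.43-fold lower (limma adjusted p = 0.0355 in HP and 0.0180 in LP). Kcnk2 (TREK1), a relative of TRAAK, fell in LP by 0.72 ± 0.19 (limma adjusted p = 0.0278), and its HP difference was -0.17 ± 0.19 (limma adjusted p = 0.633). Kcnk3 (TASK1, an acid-sensitive channel) fell in HP by 0.43 ± 0.12 (limma adjusted p = 0.0425), and its LP difference was -0.06 ± 0.12 (limma adjusted p = 0.808). Leaving out single arrays ended the HP call of Kcnk3 in 9 of 12 cases (0.0503 to 0.144) and of Kcnk1 in 7 (0.0505 to 0.124). The HP call of Kcnk3 held without HP sham replicate 2, LP sham replicate 1 or LP SNL replicate 2, and without HP sham replicates 1 and 3 together the difference was -0.22 (0.520). That of Kcnk1 held without HP SNL replicate 3, LP sham replicate 1 or 3 or LP SNL replicate 1 or 2. In LP, Kcnk1 was lost without LP SNL replicate 1 or LP sham replicate 1 or 2 (0.0573 to 0.0691), and Kcnk2 without LP SNL replicate 2 or LP sham replicate 1 or 2 (0.0599 to 0.0926). The average fall of Kcnk2, by 0.45 ± 0.13 (limma adjusted p = 0.0337), was lost without HP SNL replicate 1 or 3, HP sham replicate 1 or 2 or LP sham replicate 1 or 2 (0.0537 to 0.0796). The other 7 K2P genes passed in no comparison, with average differences of -0.50 to 0.19.

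None of the 15 inward rectifier genes passed in HP or in LP by its brightest probe set, with differences of -1.63 to 0.54 in HP and -0.44 to 0.81 in LP and median differences of -0.16 and 0.01. The widest of these belong to dim probe sets such as Kcnj12, which read 78.8, 8.9 and 10.9 in HP SNL against 55.7, 97.3 and 49.1 in HP sham. Its HP difference was -1.63, and without HP SNL replicate 1, which lay among the sham arrays, it passed at -2.59 in HP (limma adjusted p = 0.00216) and at -1.18 on the average (0.00481). Kcnj8, for a pore subunit of ATP-sensitive channels, had an HP difference of 0.53 that passed with the dimmest 25% of genes left out (0.0342), with the replicate block (0.0470) and without LP SNL replicate 3 (0.0331). Kcnj5, at 0.45 in HP, passed at 0.64 without HP SNL replicate 3 (0.0256). Dimmer probe sets fell for Kcnj6, by 0.72 on the average (limma adjusted p = 0.0115, 1 of its 3 others), and for Kcnj11, by 0.76 in HP and by 0.49 on the average (0.0480 and 0.0436, 1 of its 2 others). Kcnj3, which encodes GIRK1, a G protein gated channel that opens downstream of opioid receptors, fell on the average by 0.36 ± 0.11 (limma adjusted p = 0.0372). Its means were 373.5 ± 71.4 in HP SNL and 449.6 ± 22.3 in HP sham, and 446.4 ± 71.5 in LP SNL and 600.9 ± 49.2 in LP sham (SD, n = 3 each). The call held without HP SNL replicate 3, LP sham replicate 1 or LP SNL replicate 2 but was lost without any 1 of the other 9 arrays (0.0572 to 0.0840), and its 2 other probe sets did not pass, at -0.17 and 0.22.

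None of the 5 pore genes of calcium- and sodium-activated channels passed in a comparison. Kcnma1, the BK pore, had differences of -1.29 ± 0.42 in HP (limma adjusted p = 0.0753) and -0.43 ± 0.42 in LP, with signals of 48.7 to 145.3 in HP SNL against 134.0 to 225.4 in HP sham. Without HP SNL replicate 3 it passed in HP, at -1.77 (0.0143). Kcnn4 and Kcnt1 had average differences of 0.12 (95% interval -0.14 to 0.38) and -0.12 (-0.43 to 0.19). Kcnq3, a subunit of the M-current channel that restrains repeated firing, gave -0.01 with an interval of -0.26 to 0.24. Kcnb2, a Kv2 pore subunit that pairs with the silent subunits, gave -1.20 ± 0.38 in HP and -0.33 ± 0.38 in LP without passing, at signals of 9.7 to 52.0 on all arrays. Without HP SNL replicate 1 it passed in HP, at -1.61 (0.0154).

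In all, 26 of the 73 genes were called in HP, in LP or on the average, and 47 were not. The share of all genes called in any of these comparisons is not given here. A missing call says little for the dim genes. Of the 31 Kcn genes among the dimmest 25% of all genes, 3 were called on the average, and of the other 42, 22 were. Over all genes 24.8% were called on the average. In a separate fit with the dimmest 25% left out, 2649 of 7808 genes were called on the average. The share over all dim genes is not given here, so these counts are not read as particular to Kcn genes. Leaving out 1 array also gave calls in HP for Kcnq1 (1.39, limma adjusted p = 0.0136, without HP sham replicate 2) and Kcnk5 (-1.20, 0.0359, without HP SNL replicate 3). In LP, Kcnn1 rose without LP sham replicate 2 (0.52, 0.0436). Some alternatives gave falls on the average for Kcna5, Kcna6, Kcnb2, Kcng2, Kcnip1, Kcnj4, Kcnj12, Kcnk3, Kcnk5 and Kcnma1. Some gave rises on the average for Kcnh3, Kcnj8 and Kcnq1. For Kcnh3 the rise was 0.28 to 0.40 (limma adjusted p = 0.0295 to 0.0490). Uncalled genes ranged from -1.77 (Kcnip1) to 0.91 (Kcne3) in HP and from -1.06 (Kcnh8) to 0.81 (Kcnj9) in LP.

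The lines were then compared with each other. No Kcn gene passed for HP minus LP after sham or after SNL, nor for the difference between the HP and LP ligation differences (limma). Over all genes 0.00961% passed after sham, 0.173% after SNL (0.0864% in each direction) and 0% for the difference of differences. At an unadjusted p under 0.05 there were 8 Kcn genes after sham, 12 after SNL and 8 for the difference of differences, beside 1017, 1111 and 489 of all genes. Kcna1 was lower in HP than in LP by the same log2 difference after SNL and after sham (-0.71 ± 0.18 in each, limma adjusted p = 0.201 after SNL and 0.303 after sham). Its HP arrays (1040.8 to 1377.3) lay below all LP arrays (1675.9 to 2717.9) whatever the surgery. Kcnab3 was lower in HP SNL (43.2 to 109.4) than in LP SNL (132.7 to 237.5), at -1.60 ± 0.36 (limma adjusted p = 0.16). After SNL, Kcns3 was higher in HP (415.2 to 524.2) than in LP (291.0 to 322.5), with a difference of 0.57 ± 0.11 and a limma adjusted p of 0.0822. Without HP SNL replicate 1, Kcnj12 passed as lower in HP than in LP after SNL, at -2.78 (0.0238).

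For the size of the ligation difference, the smallest p-values among Kcn genes belonged to Kcnj5, Kcnip4 and Kcns3, with HP minus LP differences of 0.70 ± 0.25, 0.94 ± 0.34 and 0.41 ± 0.15 (limma adjusted p = 0.989 each). For Kcnip4 and Kcns3 a positive value means a smaller fall in HP. Kcnj5, a G protein gated inward rectifier, had differences of 0.45 in HP and -0.25 in LP, neither past the threshold. Kcns1 leaned the other way, at -1.17 ± 0.45 (limma adjusted p = 0.989). Genes called in one line alone are therefore not shown to differ between the lines. Kcnc1, for example, had a difference between the lines of -1.19 with a 95% interval of -2.50 to 0.12.

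**Figure D4:**
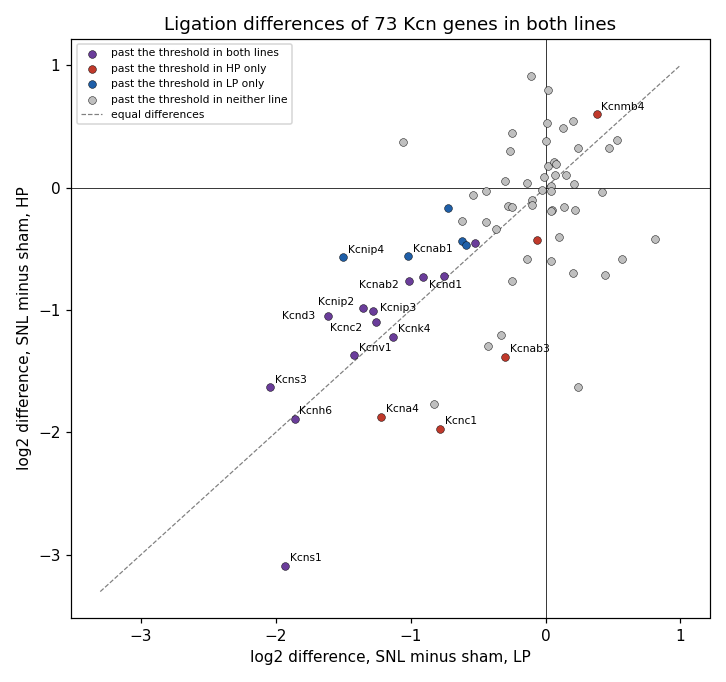
Log2 difference of signal + 1, SNL minus sham, in HP (vertical axis) against LP (horizontal axis) for the 73 Kcn genes, 1 point each, coloured by the line in which the gene passed an adjusted p of 0.05, with a dashed line of equal differences. The 13 genes past the threshold in both lines all lie in the lower left, with Kcns1 at -3.09 in HP and -1.93 in LP.

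Genes with other symbols were listed for proteins that bind or regulate potassium channels, for the related Hcn channels and for ion transporters. Of 28 listed 20 were measured. In HP 4 fell and none rose, where 6.59% of all genes fell and 7.02% rose. In LP 5 fell and 1 rose, where 6.79% of all genes fell and 7.66% rose. On the average 6 fell and 2 rose, where 11.8% of all genes fell and 13.0% rose. The median differences were -0.11 in HP, -0.27 in LP and -0.19 on the average. Dpp6, the transmembrane partner of Kv4 channels, fell by 1.02 ± 0.14 in HP and by 1.43 ± 0.14 in LP on the log2 scale (limma adjusted p = 0.00148 and 0.000194). Amigo1, an accessory protein of Kv2 channels, fell by 1.03 ± 0.12 and by 1.30 ± 0.12 (limma adjusted p = 0.000759 and 0.00017). Cntnap2 and Adam22 encode proteins found with Kv1 channels along myelinated axons. Cntnap2 and Adam22 fell by 1.17 ± 0.13 and 0.93 ± 0.10 in HP and by 1.05 ± 0.13 and 0.91 ± 0.10 in LP. Abcc9, a sulfonylurea receptor of ATP-sensitive channels, was the gene of the list that rose in LP (0.43 ± 0.12, limma adjusted p = 0.0447). It also rose on the average (0.34 ± 0.09, limma adjusted p = 0.0176), as did Hcn4, a pacemaker channel gene (0.41 ± 0.12, limma adjusted p = 0.0282).

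Of 14 listed regulators studied for potassium channel genes in injured ganglia, 10 were measured, and 3 rose and none fell in each line. Over all genes 7.02% rose in HP and 7.66% in LP. The 3 regulators were the injury-induced transcription factor genes Atf3 (2.50 ± 0.22 in HP and 2.85 ± 0.22 in LP) and Jun (1.63 ± 0.11 and 1.45 ± 0.11), and the histone methyltransferase gene Ezh2 (1.28 ± 0.13 and 1.16 ± 0.13). On the average 4 regulators rose and none fell, where 13.0% of all genes rose. Hdac1 rose on the average alone (0.62 ± 0.15, limma adjusted p = 0.0136). Rest, the gene of the repressor that binds the element mentioned for Kcnh6, did not pass (0.19 ± 0.18 in HP and -0.27 ± 0.18 in LP, limma adjusted p = 0.557 and 0.372), at signals of 17.0 to 31.9 on all arrays, close to the bottom of the scale.

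Cell type markers moved alongside these falls. Over all genes 6.59% fell and 7.02% rose in HP, and 6.79% fell and 7.66% rose in LP. Of the 12 neuron markers 3 fell in each line, among them Rbfox3 (-1.65 in HP and -2.28 in LP) and Avil (-0.91 and -1.02), with a median over the list of -0.13 in HP and -0.19 in LP. Nefh, Nefl, Nefm, Tubb3, Uchl1 and Prph lay between -0.19 and 0.08 in both lines without passing. Stmn2 did not pass either, at 0.33 in HP and 0.20 in LP. Of 10 measured macrophage markers 7 rose in each line, with medians of 1.07 and 1.27. Of 6 measured satellite glia markers 3 rose in each line, and of 6 fibroblast markers 4 rose. Of 7 measured skeletal muscle markers 3 fell in HP and none in LP, and none of 5 T cell markers passed. Their part in the falls of the Kcn genes was not tested.

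**Figure D5:**
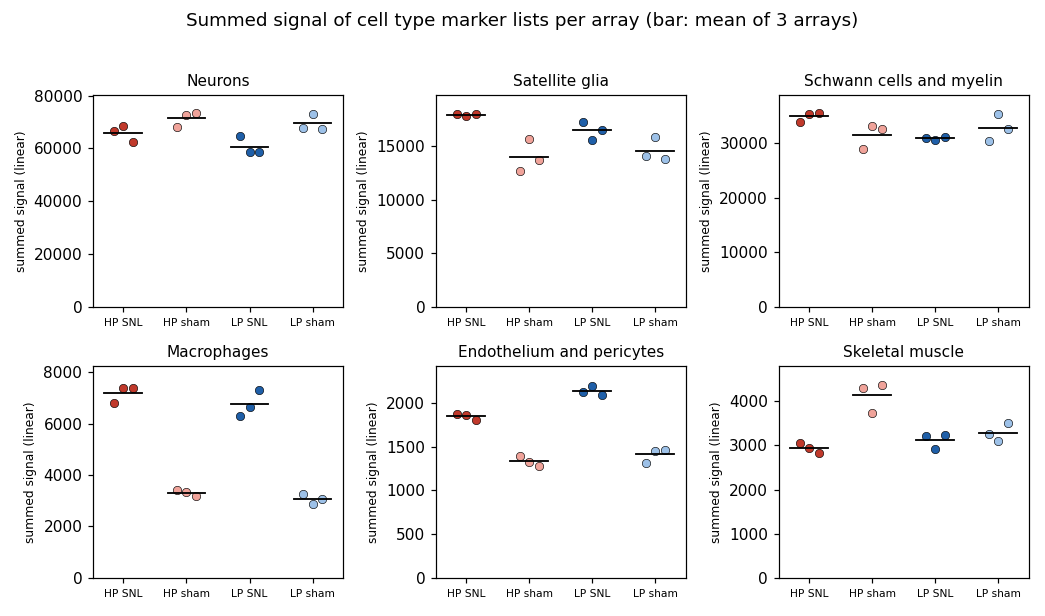
Summed signal (linear scale) of 6 marker gene lists on each of the 3 arrays of the HP SNL, HP sham, LP SNL and LP sham groups, with a bar at the group mean and axes starting at 0. Macrophage sums are 6309 to 7391 in the SNL arrays against 2871 to 3412 in the sham arrays, while neuron sums differ less, at 58520 to 68350 against 67370 to 73410.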

How the data were processed

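Gene expression was measured on 12 Affymetrix arrays. The authors deposited linear intensities, 1 for each of 15923 probe sets on each array, with a maximum of 13930.7. Per the submitters' processing notes the tool named is RMA, with no version. Once the top and bottom 2% of intensities are set aside, however, the mean of each array is 500.1, as Affymetrix global scaling would give, and the steps behind the intensities could not be settled. Per the labels' protocols, total RNA was isolated with a Qiagen kit and labelled by the Affymetrix manual. Groups and replicate numbers come from the sample titles.

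Probe sets were named from the platform annotation, updated through a RefSeq gene table of GRCr8 (12748 by gene identifier, 2 by accession, 33 by the platform symbol). The 312 with several symbols and the 2771 with none were not used for genes, nor were 57 controls. Of the 191076 values, 109 were below 1 and 3 were 0. Values were used as log2(value + 1) with no further normalization, in 1 limma fit of 4 group means over all 12 arrays (limma 3.58.1, statmod 1.5.0, R 4.3.3, with lmFit and eBayes on contrasts of the means, 8 residual and 2.05 prior degrees of freedom), two-sided, with a threshold of 0.05 over the 10411 genes. Where probe sets of 1 gene are compared, the fit and its adjustment were repeated over all named probe sets.

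Alternatives were pseudocounts of 16 and 32, quantile normalization, median centring, leaving out the dimmest 25% of genes, averaging the probe sets of a gene, trended and robust variance, the log2 ratio of the actin 3' and 5' probe sets as a covariate, the replicate number as a block, a fit of the arrays compared alone, leaving out each array, and leaving out HP sham replicates 1 and 3. The fit was tested on simulated data. The Kcn genes, the lists of partners, regulators and markers and the named gene rule were chosen with earlier results of these data known. The rule names every Kcn gene past a threshold, the brightest of each subfamily and the 3 of smallest p between the lines, with signals per array where a called log2 difference was at least 1 in size. Outside it, and after their values were seen, Kcna2, Kcnd2, Kcnip1, Kcnh7, Kcnj12, the uncalled modulatory and Kcna genes, Kcnh8 and Kcnj9 were named to complete a subfamily or mark the end of a range. Kcnh3, Kcnj4, Kcnj6, Kcnj8, Kcnj11, Kcnk5, Kcnn1 and Kcnq1 were also named then, because another probe set or setting gave a call. Figures were drawn with matplotlib 3.10.9 in Python 3.11.15.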

Additional observations from a re-analysis of the deposited data

How the results depend on the processing

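The actin covariate changed the number lower in HP more than the number lower in LP or on the average. Whichever single array was left out, 20 of the 25 Kcn genes called on the average kept the call. In LP 13 of 18 did, and in HP 12 of 18. The alternatives left out HP sham replicates 1 and 3 together but no pair of LP arrays. Counts of calls kept under every alternative are therefore not compared between the lines. Over the genes called and 3 named for the difference between lines, 1281 of 1438 repeated values kept direction and call, 157 lost the call and none reversed. The number lower in HP, 17, was 7 with actin as covariate, 11 when only HP arrays were fitted, 11 to 18 without single arrays and 3 without HP sham replicates 1 and 3. The number higher in HP, 1, was 2 without the dimmest genes, 1 to 2 without single arrays and 0 without HP sham replicates 1 and 3. In LP, 0 higher became 1 with quantile normalization, without the dimmest genes, with trended and robust variance, with the actin covariate and in some fits without single arrays (0 to 1), while 18 lower ranged from 14 to 19. On the average, 3 higher ranged from 1 to 4 without single arrays and was 1 without HP sham replicates 1 and 3, and 22 lower ranged from 16 (without HP sham replicates 1 and 3) to 25 (quantile normalization), and from 19 to 23 without single arrays. For HP against LP after SNL, 0 higher became 1 (Kcns3) without the dimmest genes and with trended and robust variance (limma adjusted p = 0.0420 and 0.0306), and 0 lower became 1 (Kcnj12, limma adjusted p = 0.0238) without HP SNL replicate 1, a range of 0 to 1. Over all genes, the 1417 calls in HP were 818 with the actin covariate and 312 without HP sham replicates 1 and 3. The cause was not tested.

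Same-numbered arrays did not deviate together (correlations of their deviations from group means of -0.157 to 0.0984), so the numbers were not taken to pair samples. With the replicate number as a block, HP had 2 higher and 13 lower, LP 16 lower and the average 19 lower. For the average and the difference between lines, a fit of the arrays compared alone is the main one. Leaving out 2 of 3 sham arrays leaves a lone array, assumed to vary like the other groups. Signals near the 5th percentile limit what can be seen in dim genes.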
